A study of Mus musculus with 12 samples.

Results

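Keratins and vimentin are the proteins of cytoplasmic intermediate filaments. Described here are 7 genes chosen by their symbols, Krt7, Krt8, Krt18, Krt19, Krt20, Krt23 and Vim. Each was read by 1 probe set that the probe table of the platform pairs with that symbol alone, so that 7 of the 21789 probe sets with exactly 1 symbol (19938 genes) are described, and none was lost to a filter on low values. The cells were primary mouse hepatocytes (mouse HPC), the main cell type of the liver, taken from male C57BL/6 mice with collagenase and kept on collagen in serum-free medium. RNA was measured on 12 Affymetrix Mouse Gene 1.0 ST arrays in 4 groups of 3 replicates: untreated cells, and cells stimulated with 1 ng/mL of recombinant human TGF-β1 for 20 min, 2 h or 4 h. The medium of all groups was exchanged before stimulation, and untreated cells were taken at the start only, so time since that exchange and treatment cannot be told apart. Ages of the mice were not given in the sources used here. Signals are given on the log2 scale as deposited, after robust multi-array averaging (RMA) by the authors, so that a difference of 1 is a 2-fold difference.

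Keratins form filaments only as pairs of a type II and a type I chain. In the liver the pair of Krt8 (type II) and Krt18 (type I) makes up the keratin filaments of hepatocytes, whereas cells of the bile ducts also carry the pair of Krt7 (type II) and Krt19 (type I). Krt20 is a type I keratin best known from the intestinal epithelium and the urothelium, Krt23 is a type I keratin that is low in normal liver, and Vim, vimentin, is the intermediate filament protein of mesenchymal cells, endothelial cells and leukocytes. A gain of vimentin with a loss of epithelial traits is the usual sign of the epithelial to mesenchymal transition, a programme that TGF-β can start in epithelial cells. Krt8 and Krt18 lie side by side on chromosome 15 with 0 protein-coding genes between them in the RefSeq annotation, and so do Krt20 and Krt23 on chromosome 11. Krt7 lies on chromosome 15 with 23 protein-coding genes between it and Krt8, Krt19 on chromosome 11, and Vim on chromosome 2.

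The 250 bases before the annotated start are shown for Krt20, the member that moved most, for Krt8 and Krt18, the hepatocyte pair, which has the brightest signals, and for Vim. They are RefSeq sequences of GRCm38.p6, read along the gene: Krt20 at chr11:99438154-99438403, minus strand, Krt8 at chr15:102004343-102004592, minus strand, Krt18 at chr15:102027966-102028215, plus strand, and Vim at chr2:13574061-13574310, plus strand. Capitals mark CAGAC on either strand (also read as GTCTG), the core of the element bound by SMAD proteins, the transcription factors of TGF-β signalling, and TATAAA on the strand of the gene.
Krt20: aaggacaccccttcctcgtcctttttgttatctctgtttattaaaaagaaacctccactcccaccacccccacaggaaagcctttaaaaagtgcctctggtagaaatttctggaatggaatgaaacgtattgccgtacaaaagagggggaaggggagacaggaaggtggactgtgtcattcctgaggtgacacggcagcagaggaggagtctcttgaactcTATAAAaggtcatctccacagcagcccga
Krt8: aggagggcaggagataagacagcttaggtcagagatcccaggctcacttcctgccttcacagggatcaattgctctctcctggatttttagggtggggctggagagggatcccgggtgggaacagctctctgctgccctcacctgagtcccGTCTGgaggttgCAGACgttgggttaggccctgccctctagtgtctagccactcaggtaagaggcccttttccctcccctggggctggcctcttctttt
Krt18: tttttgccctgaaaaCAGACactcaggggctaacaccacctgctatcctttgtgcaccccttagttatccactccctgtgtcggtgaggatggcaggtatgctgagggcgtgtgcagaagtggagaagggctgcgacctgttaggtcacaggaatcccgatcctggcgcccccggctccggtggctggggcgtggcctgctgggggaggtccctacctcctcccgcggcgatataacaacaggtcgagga
Vim: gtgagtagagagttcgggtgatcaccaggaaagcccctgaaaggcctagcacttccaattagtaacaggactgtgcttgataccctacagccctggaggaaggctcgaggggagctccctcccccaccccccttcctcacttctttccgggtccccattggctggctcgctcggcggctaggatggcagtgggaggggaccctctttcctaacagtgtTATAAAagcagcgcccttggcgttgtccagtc

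A promoter was found for 6 of the 7 genes, all but Krt19. TATAAA stood at bases -29 to -24 of Krt20 and -32 to -27 of Vim, counted back from the start, and in none of the other 4 windows, while 7.59% of the 32851 promoters of the same length held it. Krt8 had 2 CAGAC matches, Krt18, Krt7 and Krt23 had 1 each, and Krt20 and Vim had 0. CAGAC was in 42.2% of all promoters, and 11.7% had 2 or more. TGANTCA, the AP-1 element, was searched on both strands and was in none of the 6 windows and in 6.75% of all promoters. These matches describe letters in a window and are no measure of binding.

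None of the 7 genes was called at any time, with a call set at an adjusted p under 0.05 (limma with time and replicate as factors, Benjamini-Hochberg over all 21789 probe sets). Over all probe sets 0% were called at 20 min, 0% at 2 h and 4.59% at 4 h, of which 1.57% were higher and 3.02% lower than in untreated cells. The moderated F test over the time course called 0 members and 1.4% of all probe sets, and 4 h against 2 h called 0 members and 0.078% of all. At an unadjusted p under 0.05, 1 member passed at 20 min (Krt7), 0 at 2 h and 1 at 4 h (Krt20), where 8.46%, 6.28% and 17% of all probe sets passed at those times. The median change of the 7 genes at 4 h was 0.07, against 0.02 over all probe sets. Krt20 stood apart from the other 6, whose changes at 4 h lay between 0.03 and 0.15.

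**Figure D1:**
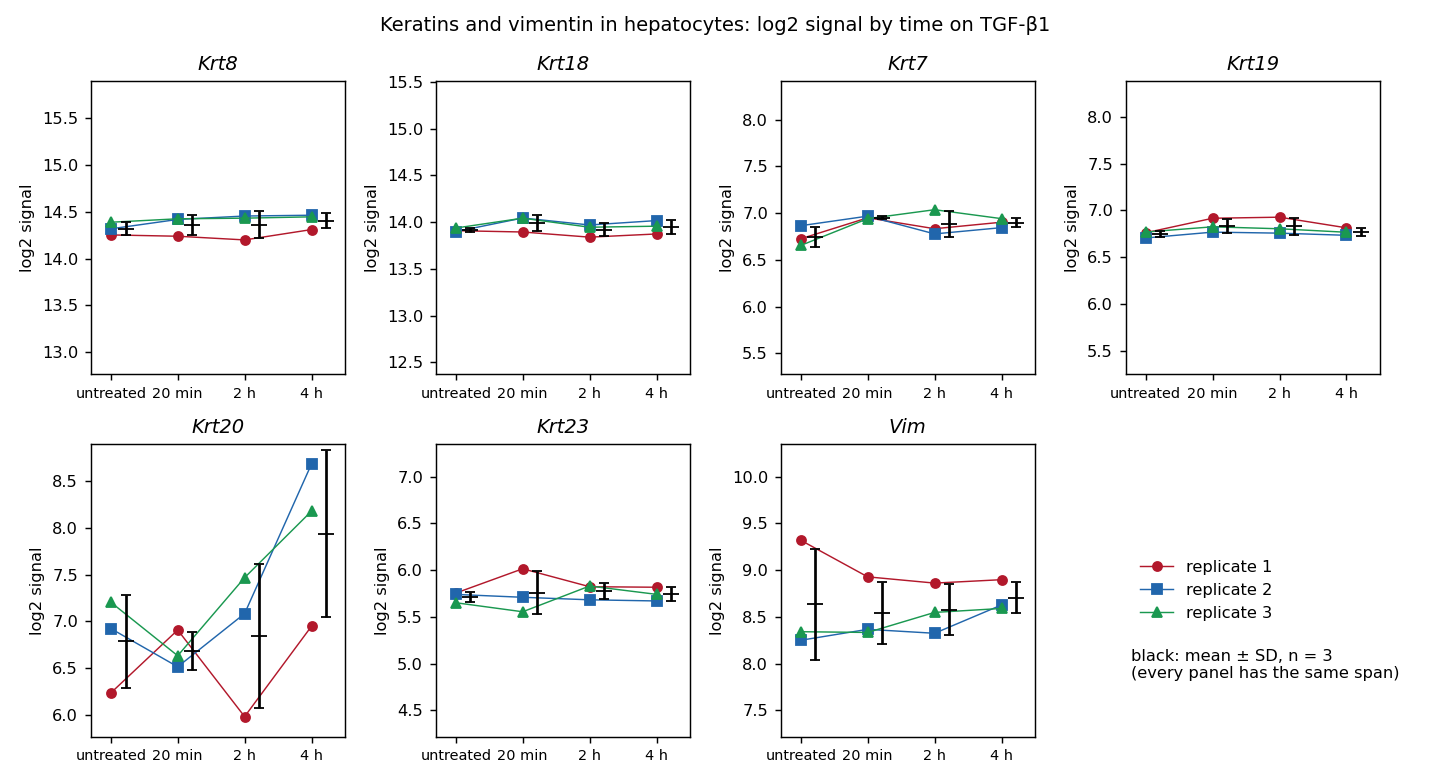
Log2 signal of each of the 7 genes (vertical axes, with the same span in every panel) in untreated cells and after 20 min, 2 h and 4 h of TGF-β1 (horizontal axis). Coloured points and lines are the 3 replicates and black bars the mean ± SD. Krt20 at 4 h is the only mean over 1 log2 unit from that of untreated cells, and replicate 1 of Vim lies above the other 2 replicates at every time.

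Krt8 had the brightest signals of the set. Its log2 signal in replicates 1, 2 and 3 was 14.25, 14.32 and 14.39 in untreated cells, 14.24, 14.42 and 14.43 at 20 min, 14.20, 14.46 and 14.43 at 2 h, and 14.31, 14.46 and 14.45 at 4 h. The 4 groups overlapped. At 4 h Krt8 was 0.09 ± 0.06 above untreated cells on the log2 scale (SE, 95% interval -0.04 to 0.21, adjusted p = 0.506, limma), higher in 3 of 3 replicates. Only 7 of all tested probe sets had a higher mean signal at 4 h, and 10 in untreated cells. Whether so bright a probe set still follows a change in RNA to scale was not tested, the highest value on any array being 15.2.

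Krt18, the type I partner of Krt8, was not called at any time. It had 13.91, 13.90 and 13.94 in untreated cells, 13.89, 14.04 and 14.04 at 20 min, 13.84, 13.97 and 13.95 at 2 h, and 13.87, 14.02 and 13.96 at 4 h. Its change at 4 h was 0.03 ± 0.06 (SE, 95% interval -0.09 to 0.16, adjusted p = 0.839, limma), and the groups overlapped at every time. The residual SD of Krt8 and Krt18, left after time and replicate, was 0.04 for each, and only 4.22% and 4.08% of all tested probe sets had a smaller one. Within a replicate both partners changed little, and not always in the same direction: replicate 1 at 4 h had 0.06 for Krt8 and -0.04 for Krt18. The change of Krt8 minus that of Krt18 was -0.04 ± 0.04 at 20 min, 0.04 ± 0.03 at 2 h and 0.05 ± 0.03 at 4 h (SD, n = 3). This difference was above 0 in 3 of 3 replicates at 2 h and at 4 h.

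Krt7, the type II keratin of bile duct cells, had much dimmer signals. It was 6.73, 6.87 and 6.66 in untreated cells, 6.95, 6.97 and 6.94 at 20 min, 6.83, 6.78 and 7.04 at 2 h, and 6.90, 6.85 and 6.94 at 4 h. The 3 arrays at 20 min lay above all 3 arrays of untreated cells, the only member and time where the groups did not overlap, and 9.49% of all probe sets did not overlap at 20 min. The change at 20 min was 0.20 ± 0.08 (SE, 95% interval 0.03 to 0.38), higher in 3 of 3 replicates, with an unadjusted p of 0.0257 and an adjusted p of 0.531 in limma. At 4 h it was 0.15 ± 0.08 (SE, 95% interval -0.03 to 0.32, adjusted p = 0.391, limma), higher in 2 of 3 replicates.

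Krt19, the type I partner of Krt7, differed from untreated cells by 0.09 or less at every time. It had 6.76, 6.71 and 6.77 in untreated cells, 6.92, 6.77 and 6.83 at 20 min, 6.93, 6.76 and 6.80 at 2 h, and 6.81, 6.73 and 6.77 at 4 h. The groups overlapped at every time, and the change at 4 h was 0.03 ± 0.06 (SE, 95% interval -0.10 to 0.15, adjusted p = 0.877, limma). Both biliary keratins lay low on the signal scale of the arrays. In untreated cells 98% of 1035 olfactory receptor probe sets, genes that liver cells should lack, were below each of them, but 42.5% and 42.4% of all tested probe sets were below Krt7 and Krt19.

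Set against each other, the hepatocyte pair and the biliary pair did not part beyond the spread between replicates. The mean change of Krt8 and Krt18 was 0.06 ± 0.07 at 20 min, 0.02 ± 0.08 at 2 h and 0.06 ± 0.06 at 4 h (SD, n = 3 replicates). The mean change of Krt7 and Krt19 was 0.15 ± 0.06 at 20 min, 0.11 ± 0.12 at 2 h and 0.09 ± 0.07 at 4 h. The hepatocyte pair minus the biliary pair was -0.20, 0.04 and -0.10 in replicates 1, 2 and 3 at 20 min, -0.20, 0.12 and -0.18 at 2 h, and -0.10, 0.13 and -0.10 at 4 h. Replicates 1 and 3 were thus below 0 and replicate 2 above 0 at each of the 3 times, which all share the untreated arrays. The mean difference was smaller than its SD at every time, at -0.09 ± 0.12, -0.09 ± 0.18 and -0.03 ± 0.13, and without replicate 1 or replicate 3 the difference at 4 h was 0.01. No p was computed for these scores.

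Krt20 was the one member with a sizeable change. It had 6.23, 6.92 and 7.20 in untreated cells, 6.91, 6.51 and 6.63 at 20 min, 5.98, 7.08 and 7.47 at 2 h, and 6.95, 8.68 and 8.18 at 4 h. Replicates 2 and 3 at 4 h lay above every other array of the 12, whereas replicate 1 at 4 h lay within the range of untreated cells, so the groups overlapped. Compared within replicates, the 4 h array was higher than the untreated array by 0.71, 1.76 and 0.97.

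The change of Krt20 at 4 h was 1.15 ± 0.31 (SE, 95% interval 0.48 to 1.82), or 2.22-fold with an interval of 1.39 to 3.54, and higher in 3 of 3 replicates. Its unadjusted p was 0.0031 and its adjusted p 0.0602 in limma, which missed the threshold. Which replicates were used decided on which side it fell: the adjusted p was 0.00388 without replicate 1 (change 1.37), 0.278 without replicate 2 (0.84) and 0.263 without replicate 3 (1.24). Over all probe sets these fits called 985, 101 and 32 at 4 h, against 1000 with all arrays, so the loss of calls was not particular to Krt20. At 20 min and 2 h the change of Krt20 was -0.10 ± 0.31 and 0.06 ± 0.31, and the 3 replicates did not share a direction. Against 2 h, 4 h was higher by 1.09 ± 0.31 (adjusted p = 0.216, limma), with 0.97, 1.60 and 0.71 in the 3 replicates. This step from 2 h to 4 h was larger than the SD within either group, while untreated cells, 20 min and 2 h differed by less than their SDs. Nearly all tested probe sets had a smaller residual SD than the 0.51 of Krt20, so its interval was the widest of the set. The mean signal of untreated cells was low, above 98.3% of the olfactory receptor probe sets, and at 4 h above 99.7% of them. Replicate 1 was lower, at 6.23 in untreated cells and 5.98 at 2 h, both below the 95th percentile of those probe sets, 6.34. Its change of 0.71 at 4 h thus started at background and was near its change of 0.67 at 20 min.

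Krt23, the neighbour of Krt20 on the chromosome, differed from untreated cells by 0.06 or less at every time. It had 5.75, 5.74 and 5.65 in untreated cells, 6.01, 5.71 and 5.55 at 20 min, 5.82, 5.68 and 5.83 at 2 h, and 5.82, 5.67 and 5.74 at 4 h. The change at 4 h was 0.03 ± 0.08 (SE, 95% interval -0.16 to 0.21, adjusted p = 0.922, limma) and the groups overlapped at every time. Its signal in untreated cells was above 83.7% of the olfactory receptor probe sets and below their 95th percentile, so its level could not be told from background.

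**Figure D2:**
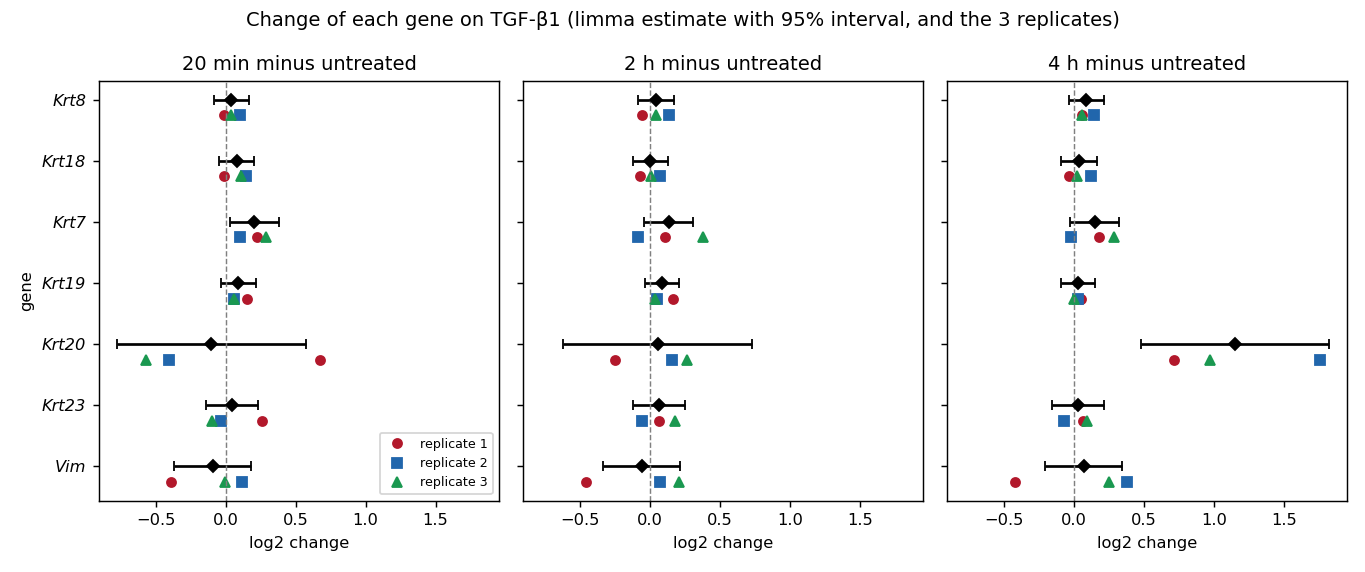
Change of each gene on the log2 scale (horizontal axes) after TGF-β1 for 20 min, 2 h or 4 h minus untreated cells. Black diamonds and bars are the limma estimate and its 95% interval, and coloured symbols the 3 replicates. The intervals of Krt20 at 4 h, 0.48 to 1.82, and of Krt7 at 20 min, 0.03 to 0.38, are the ones that leave out 0, and neither gene was called after adjustment.

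Vim, the mesenchymal filament gene, was not called and its replicates went apart. It had 9.32, 8.25 and 8.34 in untreated cells, 8.93, 8.37 and 8.33 at 20 min, 8.86, 8.32 and 8.55 at 2 h, and 8.90, 8.63 and 8.59 at 4 h. Replicate 1 at 8.86 to 9.32 lay above replicates 2 and 3 at 8.25 to 8.63 on all arrays. At 4 h Vim was 0.42 lower than in untreated cells in replicate 1, and 0.38 and 0.25 higher in replicates 2 and 3. The fitted change was 0.07 ± 0.13 (SE, 95% interval -0.21 to 0.35, adjusted p = 0.856, limma), and without replicate 1 it was 0.31 with an adjusted p of 0.0689. At 20 min and 2 h replicate 1 was also below its untreated array, by 0.39 and 0.46, and the change was -0.09 ± 0.13 and -0.06 ± 0.13. These differences of replicate 1 all share its 1 untreated array at 9.32, while its treated arrays lay at 8.93, 8.86 and 8.90. At 4 h Vim was higher than at 2 h by 0.13 ± 0.13 (adjusted p = 0.875, limma), in 3 of 3 replicates.

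Replicate 1 also differed in other members and in markers of liver cells. Its mean minus that of replicates 2 and 3 was 0.58 for Vim, a difference larger than that of 96.5% of all tested probe sets, -0.82 for Krt20, with 1.34% of probe sets lower, and -0.17 for Krt8, where all 4 arrays of replicate 1 (14.20 to 14.31) lay below the other 8 (14.32 to 14.46). Over all probe sets the median was 0.02, and 25.1% had replicate 1 outside the range of the other replicates. Of 8 genes of liver endothelial cells 8 were higher in replicate 1, with a mean difference of 0.53. Their mean signal was 7.26 to 7.79 at 4 h and 7.27 to 7.90 in untreated cells, with Cdh5, the cadherin of endothelial junctions, at 9.70 and 9.58 in the same 2 groups. Decorin (Dcn), a proteoglycan of fibroblasts, was higher in replicate 1 by 2.14 and was the outlier of its list. The 12 genes of stellate cells and fibroblasts had a mean difference of 0.24 but a median of 0.09. For macrophage genes the mean difference was 0.03, with 7 of 11 higher in replicate 1. Single macrophage genes went both ways, among them Csf1r at 0.54 and Lyz2 at -0.40. The list of stellate cells and fibroblasts as a whole was at 6.75 to 7.10 at 4 h and 6.79 to 6.93 in untreated cells. Lrat, which marks quiescent stellate cells, was at background, at 5.53 in both groups. For hepatocyte genes the mean difference between replicate 1 and the others was 0.09, with 5 of 10 higher in replicate 1. Single hepatocyte genes differed by more, from -0.28 for Hnf4a to 0.48 for Fah and 0.82 for Asgr1. Alb, albumin, was at 14.59 at 4 h and 14.61 in untreated cells, so the labelled cell type was borne out by its markers. The part of other cells in the Vim signal was not tested, and in such bulk samples fewer cells of a type and less RNA per cell cannot be told apart.

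**Figure D3:**
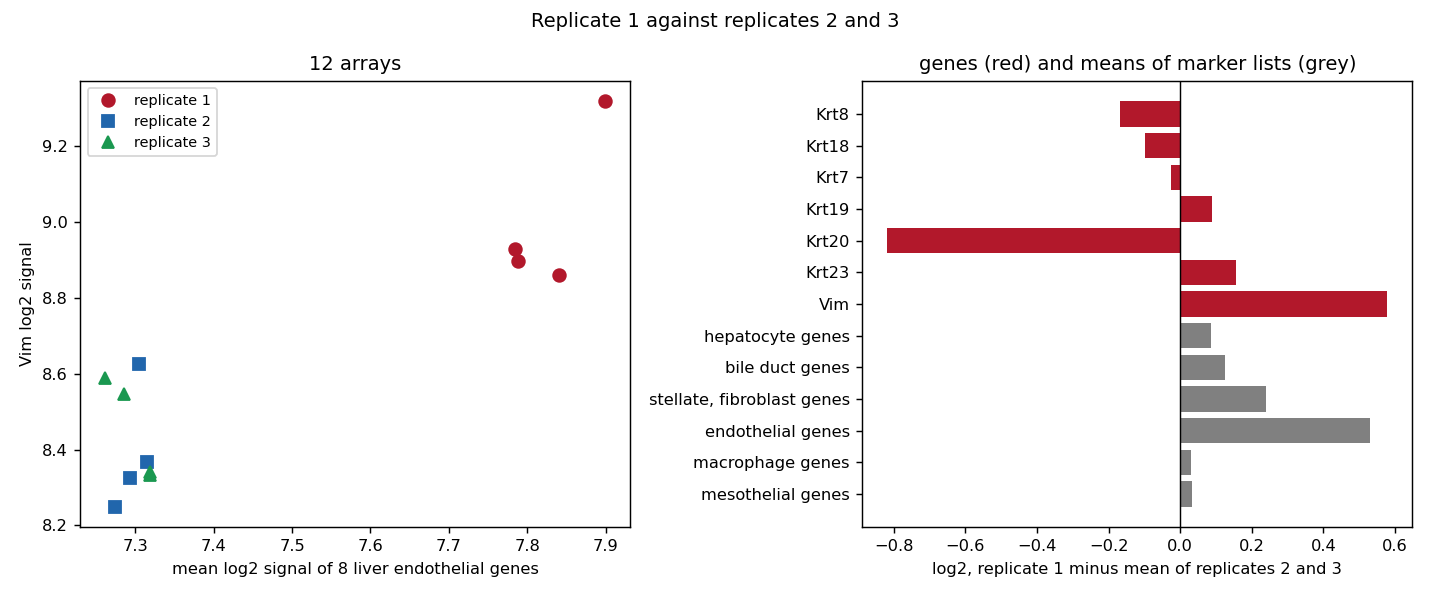
Left, Vim log2 signal (vertical axis) against the mean log2 signal of 8 liver endothelial genes (horizontal axis) on the 12 arrays, with the replicates in colours. Right, mean log2 signal of replicate 1 minus that of replicates 2 and 3 for the 7 genes (red) and for the means of 6 marker lists (grey). Vim at 0.58 and the endothelial genes at 0.53 are the highest bars, and Krt20 at -0.82 the lowest.

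The other keratins of the array are given for comparison. Of 46 other keratin genes 0 were called at any time, and at an unadjusted p under 0.05 3 passed at 20 min, 2 at 2 h and 1 at 4 h. Their changes at 4 h ran from -0.09 to 0.26 with a median of 0.05, and 35 were higher and 11 lower than in untreated cells. Only 20 of them had a mean signal above the 95th percentile of the olfactory receptor probe sets. The change of 1.15 in Krt20 lay far outside the range of the other keratins at 4 h, and those of the other 5 keratins inside it. Krt20 also varied more between replicates. At 20 min its mean change was -0.10, with 0.67, -0.41 and -0.57 in single replicates. Mean changes of the 46 other keratins at 20 min ran from -0.09 to 0.22, and their single replicates were not compared.

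**Figure D4:**
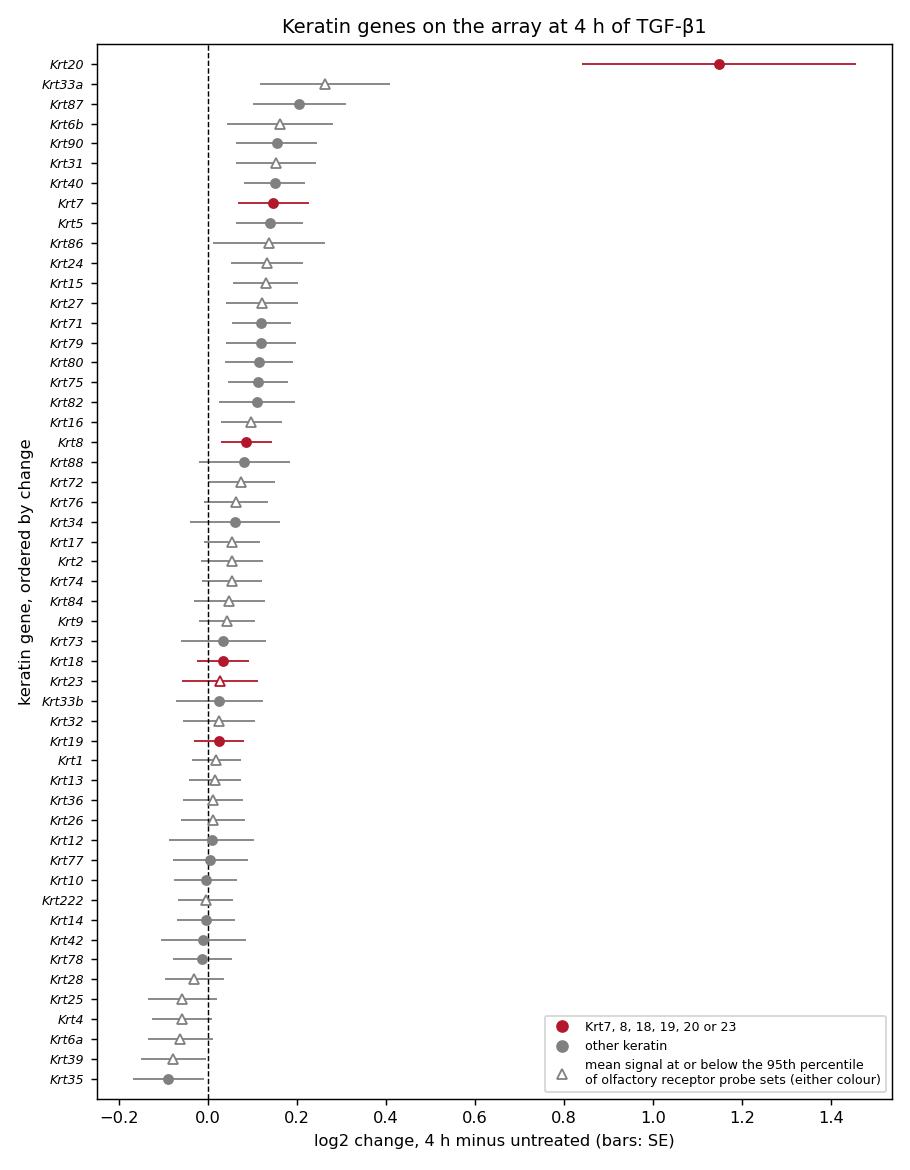
Change of each keratin gene of the array at 4 h of TGF-β1 minus untreated cells on the log2 scale (horizontal axis, bars are SE), ordered by size. Red marks Krt7, Krt8, Krt18, Krt19, Krt20 and Krt23, and open triangles mark genes with a mean signal at or below the 95th percentile of olfactory receptor probe sets. Krt20 stands at 1.15 and the next gene, Krt33a, at 0.26.

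Some genes whose proteins hold or join these filaments rose at 4 h. Of 22 genes of linkers, desmosomes and hemidesmosomes, 3 rose at 4 h, 0 fell and 19 were not called, with a median change of 0.10 and 20 of 22 above 0. Over all probe sets 1.57% were called higher and 3.02% lower at 4 h, with a median change of 0.02. These shares stand beside the counts of every list here. A lean upward was not particular to linkers: other intermediate filament genes had 14 of 16 above 0, while macrophage genes had 1 of 11. Jup, plakoglobin, which ties desmosomal cadherins to desmoplakin, averaged 10.12 ± 0.33 at 4 h and 9.37 ± 0.16 in untreated cells (SD, n = 3), a rise of 0.75 ± 0.11 (SE, adjusted p = 0.00476, limma). Eppk1, epiplakin, which binds keratin filaments, rose by 0.51 ± 0.11 (adjusted p = 0.0233), and Dsc2, a desmosomal cadherin, by 0.30 ± 0.07 (adjusted p = 0.0427). Dsp and Plec, the plakins that anchor filaments at desmosomes and hemidesmosomes, had changes of 0.21 and 0.17 and were not called. Replicate 1 lay 0.20 below the others in the mean of this list.

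Among 16 intermediate filament genes other than keratins and vimentin, 1 rose and 0 fell at 4 h, with a median change of 0.04. It was Lmnb2, a nuclear lamin, at 0.28 ± 0.07 (adjusted p = 0.0486, limma). Desmin (Des) and Gfap, the vimentin relatives of muscle, stellate and glial cells, had changes of 0.04 and 0.05 and signals of 6.60 and 6.02 at 4 h, against 6.56 and 5.97 in untreated cells. Of 14 measured genes of Mallory-Denk bodies and keratin turnover, out of 20 listed, 2 rose and 0 fell, with a median of 0.09. Mallory-Denk bodies are clumps of Krt8 and Krt18 with ubiquitin and p62 in injured hepatocytes. Mapk14, the p38 kinase, rose by 0.51 ± 0.07 (adjusted p = 0.0041, limma) and Tgm2, the transglutaminase that crosslinks proteins, by 0.43 ± 0.07 (adjusted p = 0.00809). Sqstm1, which codes for p62, had a change of -0.03 (adjusted p = 0.864).

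Of 17 measured genes of the epithelial to mesenchymal transition other than Vim, out of 18 listed, 1 rose, 1 fell and 15 were not called, with a median of 0.06. Sparc, a matrix glycoprotein, rose by 0.37 ± 0.09 (adjusted p = 0.0381, limma), and Zeb2, a repressor of Cdh1, fell by 0.40 ± 0.08 (adjusted p = 0.0151). Cdh1, E-cadherin, had a change of -0.06 (adjusted p = 0.756) and Snai1, a repressor of epithelial genes, of 0.08 (adjusted p = 0.847). Macrophage genes moved beside them: 6 of 11 fell, 0 rose, and their mean signal was 7.79 to 7.92 at 4 h and 8.22 to 8.31 in untreated cells. Lyz2 fell by 0.82 ± 0.15, C1qb by 0.74 ± 0.13, Csf1r by 0.57 ± 0.07 and C1qc by 0.46 ± 0.10. Macrophages carry vimentin and Zeb2 too, and their part in these signals was not tested.

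The bile duct markers other than Krt7 and Krt19 gave no call. Of these 10 measured genes 0 rose and 0 fell at 4 h, with a median change of 0.04, and 3 of 10 had a signal above the 95th percentile of olfactory receptor probe sets. Sox9, a transcription factor of bile duct and progenitor cells, averaged 10.70 ± 0.22 at 4 h and 9.51 ± 0.87 in untreated cells (SD, n = 3), a change of 1.19 ± 0.34 in 3 of 3 replicates (adjusted p = 0.0751, limma), and lay 1.15 higher in replicate 1 than in the others. Epcam and Cftr, which mark bile duct cells, were at 5.87 and 5.11 at 4 h, against 5.79 and 5.08 in untreated cells. Of 10 hepatocyte genes 3 fell at 4 h, namely Fah by 0.39 ± 0.09, Tat by 0.31 ± 0.08 and Asgr1 by 0.29 ± 0.07, enzymes of tyrosine breakdown and a receptor for glycoproteins. Dcn fell by 0.48 ± 0.09 (adjusted p = 0.0162), Lyve1, a hyaluronan receptor of sinusoidal endothelium, fell by 0.37 ± 0.08 (adjusted p = 0.0259), and 0 of 6 mesothelial genes were called. No member of any list was called at 20 min or 2 h. Without replicate 3, 0 members of these lists were called at 4 h, and without replicate 2 only 1 macrophage gene and 1 gene of stellate cells and fibroblasts, while over all probe sets the calls at 4 h numbered 32 without replicate 3 and 101 without replicate 2, against 1000 with all arrays. Without replicate 1 the single calls among stellate cell and fibroblast genes, endothelial genes and other intermediate filaments fell away (0 in each list), while 1 bile duct gene and 4 genes of the epithelial to mesenchymal transition were called. Over all probe sets 985 were called at 4 h without replicate 1.

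The genes most like each member were found by Pearson's r over the 12 log2 values after the mean of each replicate was taken out. For Krt20 they were Irf2bpl (r = 0.963), Apobec1 (r = 0.959) and Gramd4 (r = 0.955), of which Irf2bpl rose at 4 h by 0.56 ± 0.11 (adjusted p = 0.0135, limma) and Apobec1, the editing enzyme of Apob mRNA, by 0.55 ± 0.12 (adjusted p = 0.0227). Gramd4 had a change of 0.32 (adjusted p = 0.0605). For Vim they were Fermt2 (r = 0.94), a kindlin of focal adhesions, Sugt1 (r = 0.93) and Rab9 (r = 0.917), and for Krt8 Emc8, Tmem109 and Mrpl49, each with r = 0.965. Krt18 had Zfp750, Trappc13 and Vps25 (r = 0.877 to 0.894), Krt7 had Inava, Adamts17 and Nkx2-3 (r = 0.943 to 0.948), Krt19 had Mir370, Defb22 and Crip1 (r = 0.919 to 0.957), and Krt23 had Vmn2r66, Mir326 and 2410080I02Rik (r = 0.921 to 0.943). No member was among the 3 most like genes of another. With only 3 genes kept out of 21789 probe sets, this does not measure how filament partners vary together. The 12 points share 4 times and 3 replicates, and the highest of 21789 correlations is high by selection, so these values are a description.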

How the data were processed

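The authors deposited log2 values made with RMA in Affymetrix Power Tools, per the processing notes, with versions and settings not given in the sources used here. RMA corrects background, normalizes quantiles between arrays and summarizes each probe set. The study's methods name FARMS and a ComBat batch adjustment for its own analysis, which the deposited values do not state. They report a strong batch effect on the mouse hepatocyte chips as the reason for ComBat. They also report 1 bad chip of replicate 1, left out, at a time not among these arrays. Which arrays formed the batches is not stated. Of 35556 probe sets, 21789 with exactly 1 symbol in the platform table were tested. The 1621 with several symbols and the 12146 that this table leaves unnamed were not used. Array medians were 6.82 to 6.93. With 3 arrays per group, their number limits the precision.

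The model was limma 3.58.1 in R 4.3.3, with time and replicate number as factors, 6 residual and 5.39 prior degrees of freedom, two-sided, adjusted after Benjamini-Hochberg over all tested probe sets. The study's betr was replaced by the F test. The study describes biological replicates, with nothing further on the animals behind each array, so p-values measure the spread between these arrays. The replicate block follows the study's methods. Deviations from the group means correlated at 0.555 to 0.881 over the 18 pairs of arrays with the same number. Replicate 1 stood apart, at 0.773 to 0.881 with itself and -0.812 to -0.656 with replicates 2 and 3, whereas replicates 2 and 3 correlated with each other (0.539 to 0.722) about as much as each with its own number (0.555 to 0.794), so these values do not tell 2 from 3. On simulated arrays 98 of 100 probe sets changed by 1 on the log2 scale at 4 h were recovered. Among the 21789 simulated probe sets 6 unchanged ones were called. The changed ones were drawn at random from all probe sets, whose median residual SD was 0.10, against 0.51 for Krt20. Their recovery is thus no measure of the power for Krt20. Where a gene had several probe sets, the brightest is shown. Promoters come from RefSeq, GRCm38.p6. The genes and lists were chosen with earlier results of these data known. Named are the 7 genes, up to 4 called members per list with its defining markers, and the 3 genes most like each member, and Dsp, Plec, Des, Gfap, Sqstm1, Cdh1, Snai1 and Sox9 were added for their known roles after their values were seen. Alternatives were the block left out or random, other probe set filters, scalings, priors, array weights, thresholds and leaving out each replicate.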

Additional observations from a re-analysis of the deposited data

How the results depend on the processing

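With no replicate block, the change of Krt20 at 4 h stayed 1.15 with an adjusted p of 0.778, and with the block as a random effect its adjusted p was 0.192, while the calls over all probe sets at 4 h numbered 31 and 225 in these fits, against 1000 with the block and 21 at an adjusted p under 0.01 with a 2-fold change. No list had a called member without the block (0 in each). The cause was not tested. Krt20 was called at 4 h, as 1 of the 7 genes, when the compared groups were fitted alone (adjusted p = 0.039) and with array weights (adjusted p = 0.0132), and array weights called 1 gene over the time course. Over all probe sets the compared groups alone called 352 at 4 h, all probe sets together 371 and array weights 1799. Over the time course 0 were called with no replicate block, 56 with the random block, 1 with all probe sets, 480 with a trended prior, 1081 with array weights and 11 under the strict rule, against 305. At 4 h against 2 h they called between 0 and 193, against 17, and at 20 min and 2 h the trended prior called 4 and 9, against 0 at both. Leaving out 1 replicate gave 0 to 1 called members at 4 h and 0 to 1 over the time course, the 1 being Krt20 without replicate 1. In that fit 985 of all probe sets were called at 4 h and 345 over the time course. Of 348 values of the 28 changes of members under 13 settings, 329 kept direction and side of the threshold, 3 crossed it (Krt20 at 4 h) and 16 changed sign. Many of these values could not change direction. With equal groups and 1 probe set per member, other blocks, probe set filters, priors and groups fitted alone leave the estimate the same. Only the adjusted p could move in those settings. With array weights Vim at 2 h was 0.0415 and Krt7 at 4 h against 2 h was -0.00176. The other sign changes came from leaving out a replicate, with ranges of -0.0636 to 0.115 for Krt23 and -0.200 to 0.0545 for Vim at 20 min, -0.491 to 0.132 for Krt20 at 20 min, -0.00495 to 0.0903 for Krt8, -0.0304 to 0.0398 for Krt18, -0.0463 to 0.211 for Krt20 and -0.192 to 0.141 for Vim at 2 h, -0.00768 to 0.0691 for Krt18, -0.00368 to 0.0761 for Krt23 and -0.0864 to 0.313 for Vim at 4 h, and -0.0143 to 0.0683 for Krt7 at 4 h against 2 h. All of these were changes of at most 0.10 in the full fit. The difference between the pairs at 4 h was -0.10 to 0.01 over these omissions.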
